A study of Mus musculus with 45 samples.

Results

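The genes described here are 55 regulators of chromatin: enzymes and partner proteins that add or remove methyl and acetyl groups on histones, slide or evict nucleosomes, fold the genome or methylate DNA. They were chosen by name, and each was represented by its longest Ensembl transcript of at least 20 kb, so that all 55 were found among the 11825 genes with such a transcript. The position of the transcription wave along each of them was measured by 4sU-DRB-seq in mouse embryonic stem cells (ESCs) grown in 2i medium. WT/WT cells carried the unmodified Polr2a gene, which encodes the largest subunit of RNA polymerase II (RNAPII), WT/slow cells carried the R749H mutation in 1 allele and slow/slow cells in both, introduced into the endogenous gene by rounds of homologous recombination. All groups used here had been blocked with the elongation inhibitor DRB for 4 h, as the sample labels give it, released for 5, 15 or 30 min and pulsed with 4-thiouridine before harvest. Each genotype and time had 3 biological replicates, 27 samples in all, and 18 further samples without a table of their own (0 min or no DRB) were not analysed. The mutant ESCs derive from targeted lines, and the number of clones behind each genotype is not given in the sources used here.

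DRB inhibits the kinase that frees RNAPII from its pause near the promoter, so that gene bodies empty during the block and fill again from the start once the drug is washed out. The RNA made in the pulse marks how far this wave of polymerases has travelled, and a slower polymerase is expected to leave a wave closer to the transcription start site. Chromatin regulators are themselves long genes in mammals, with long introns near their start, so that the time RNAPII needs to cross them is part of how soon a new mRNA can appear. Many of them, such as the subunits of Polycomb repressive complex 2, the DNA methyltransferases and CTCF, are known for keeping ESCs able to change fate in an orderly way.

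The deposited value for each transcript and sample is a boundary: how many bases lie between the transcript start and the place where the wave ends, in steps of 100 bases, or no call. Whether the start of a gene's longest transcript is the one used in these cells was not tested. Boundaries lay between 0.2 and 59.3 kb in all samples, so a wave that had run farther was not recorded as such. A boundary of exactly 2.5 kb was by far the commonest value and was counted apart, because the sources used here do not say what it stands for. The values are not counts, the read depth behind them is unknown, and their precision is the spread of 3 replicates. A boundary says nothing of how much RNA a gene makes and nothing of the point mutation, so that neither the ESC identity nor the genotype of a library could be checked with these values.

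The 55 transcripts were longer than most. Their median length was 88.1 kb, from 26.3 kb in Eed to 353 kb in Arid1b, against 47 kb over all 11825 genes, and 43 of them spanned at least 60 kb. They had a median of 27 exons, against 13 over the 4678 genes of at least 60 kb, and a median first intron of 15.7 kb, against 24.6 kb in those genes. The GC content of the first 30 kb was 42.4% in the median member and 42.6% in the median gene of at least 60 kb.

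Some of the libraries stood apart for these genes. In WT/WT cells at 5 min the median boundary above 2.5 kb over the members was 10.4 kb in replicate 1, 20.4 kb in replicate 2 and 13.6 kb in replicate 3, and replicate 2 held the farthest boundary in 41 of 55 members. WT/slow cells showed the same order, with medians of 9.2, 18.3 and 14.5 kb and replicate 2 farthest in 41 members, whereas the slow/slow replicates had medians of 11.9, 11.6 and 9.75 kb. At 15 min 37 of the 55 members lay at exactly 2.5 kb in WT/WT replicate 2, against 16 in each of the other WT/WT replicates. Over all genes of at least 60 kb, replicate 2 was also the WT/WT library with the highest share at 2.5 kb at 15 min (45.8%, against 29.4% and 25.8%). Most medians, spreads and median differences over the members that involve WT/WT cells at 5 and 15 min are given with and without this library. Differences of single genes include it unless stated otherwise.

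**Figure D1:**
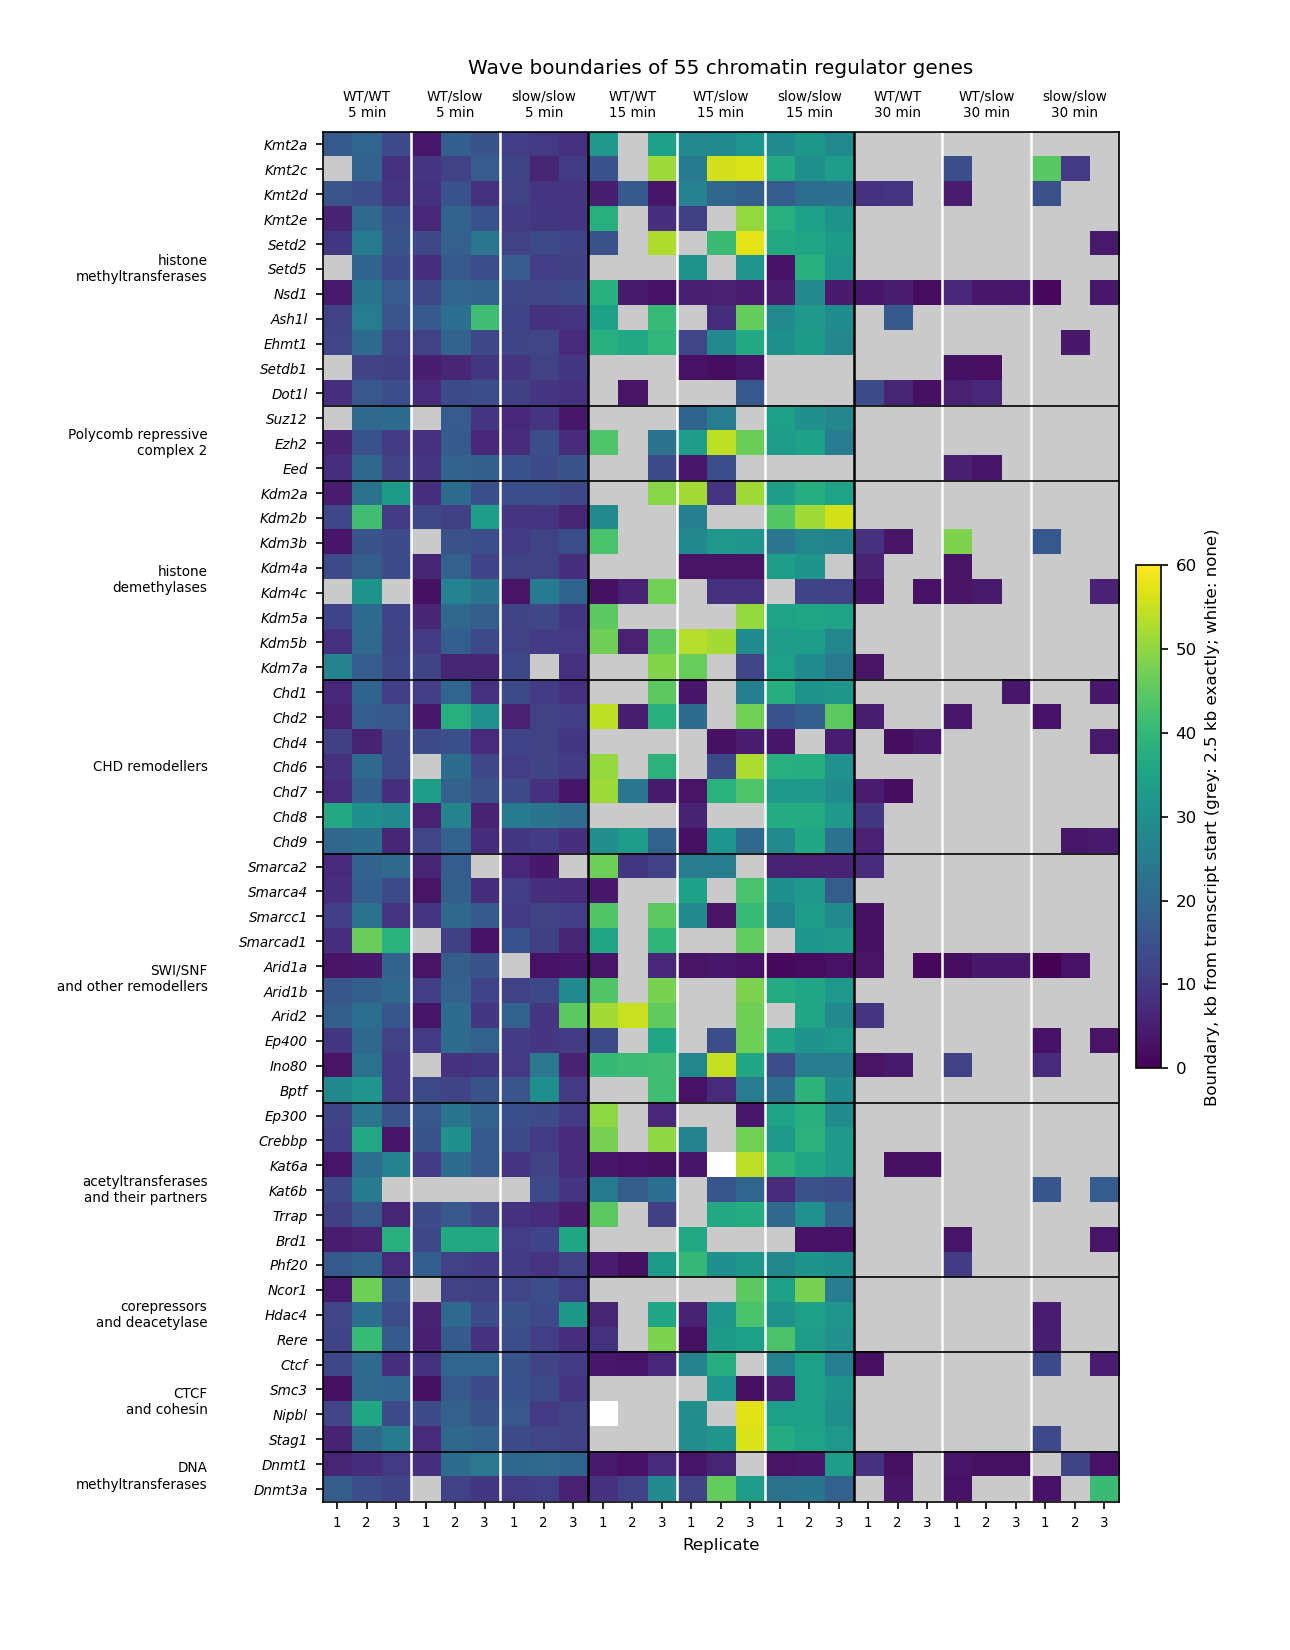
Boundary of each of the 55 genes (rows, grouped by role) in each of the 27 samples (columns, replicates 1 to 3 of each genotype and time), as a colour from 0 to 60 kb from the transcript start. Grey cells are boundaries of exactly 2.5 kb and the 2 white cells have no boundary; colours are alike within the slow/slow columns at 15 min and mixed with grey in the WT/WT columns at that time.

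After 5 min almost every chromatin regulator had a boundary beyond 2.5 kb. Of 495 values in the 9 libraries, 473 were above 2.5 kb, 22 were at 2.5 kb and none was missing. In slow/slow cells all 3 replicates were above 2.5 kb for 51 members (92.7%), in WT/WT cells for 49 and in WT/slow cells for 46. The share over all genes of at least 60 kb, genes without a call included, was 52.8%, 54.7% and 49.4%. Over 80 other chromatin genes with a transcript of at least 20 kb it was 90.0%, 73.75% and 72.5%. The mean position lay in an intron for 52 of 55 members in WT/WT cells, 25 of them in intron 1, and for 54 members in slow/slow cells, 32 of them in intron 1. Replicates were closer to each other in slow/slow cells, where the median SD per member was 1.94 kb, than in WT/WT cells (6.31 kb, or 3.75 kb without replicate 2) or WT/slow cells (5.78 kb). Over all genes of at least 60 kb with 3 boundaries above 2.5 kb the order was the same, with 2.95, 5.86 and 4.88 kb. Without replicate 2 the WT/WT SD over such genes was 3.25 kb, close to that of slow/slow cells.

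The wave of the chromatin regulators was in most cases nearer the start at 5 min where both alleles were slow, but no single gene passed the test. Of 54 members with at least 2 boundaries above 2.5 kb in both groups, 46 had a lower and 8 a higher mean in slow/slow cells, with a median difference of -3.93 kb. The same median was -2.8 kb over the 6944 genes tested and -4.28 kb over 74 other chromatin genes. None of the 54 members was called by limma at an adjusted p under 0.05, where 0.0144% of all genes were called lower and 0% higher, and 2 members (3.7%) had an unadjusted p under 0.05, against 411 of all genes (5.92%). The slow/slow replicates all lay below the WT/WT replicates in 5 of 46 members with 6 boundaries (Kmt2a, Kdm2b, Kdm4a, Chd8 and Dnmt3a), a share of 10.9% against 16.3% over all genes, and all above in 1 (Dnmt1), 2.17% against 1.25%. Without WT/WT replicate 2 the median difference of the members fell to -0.67 kb, with 32 of 49 members lower, and that of all genes to -0.7 kb.

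After 15 min the boundaries of the chromatin regulators lay close together in slow/slow cells and far apart in the other genotypes. In slow/slow cells 31, 40 and 36 of the 55 members had a boundary over 25 and up to 40 kb in replicates 1, 2 and 3, while WT/WT cells had 8, 2 and 9 and WT/slow cells 16, 14 and 12. The numbers of the slow/slow libraries did not overlap with those of the others, and the same was so over all genes of at least 60 kb. There this class held 41.0%, 42.6% and 33.6% of the boundaries in the slow/slow replicates, 15.2%, 8.8% and 18.9% in WT/WT and 17.4%, 21% and 21.4% in WT/slow cells. WT/WT and WT/slow cells instead had members both near the start and far along. Boundaries over 40 kb were found for 15, 2 and 15 members in the WT/WT replicates, 3, 6 and 22 in the WT/slow replicates and 2, 2 and 2 in the slow/slow replicates. At least 1 replicate was over 40 kb for 24 members in WT/WT cells (43.6%), 26 in WT/slow cells and 4 in slow/slow cells (7.27%), and over all genes of at least 60 kb for 32.1%, 32.0% and 10.3%. Of 165 values in each genotype, 69 were exactly 2.5 kb in WT/WT cells, 42 in WT/slow cells and 15 in slow/slow cells, with 1 missing value each in WT/WT and WT/slow cells. Without WT/WT replicate 2 there were 32 among 109 boundaries. Of the boundaries called, these shares were 42.1%, 25.6% and 9.09% over the members (29.4% in WT/WT cells without replicate 2), and 33.7%, 28.3% and 21% over all genes of at least 60 kb (27.6% in WT/WT cells without replicate 2). Over the members of at least 60 kb, the like set, they were 34.4%, 23.4% and 2.33% (17.6% in WT/WT cells without replicate 2). No test was run on these shares, which are over genes that share their libraries.

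**Figure D2:**
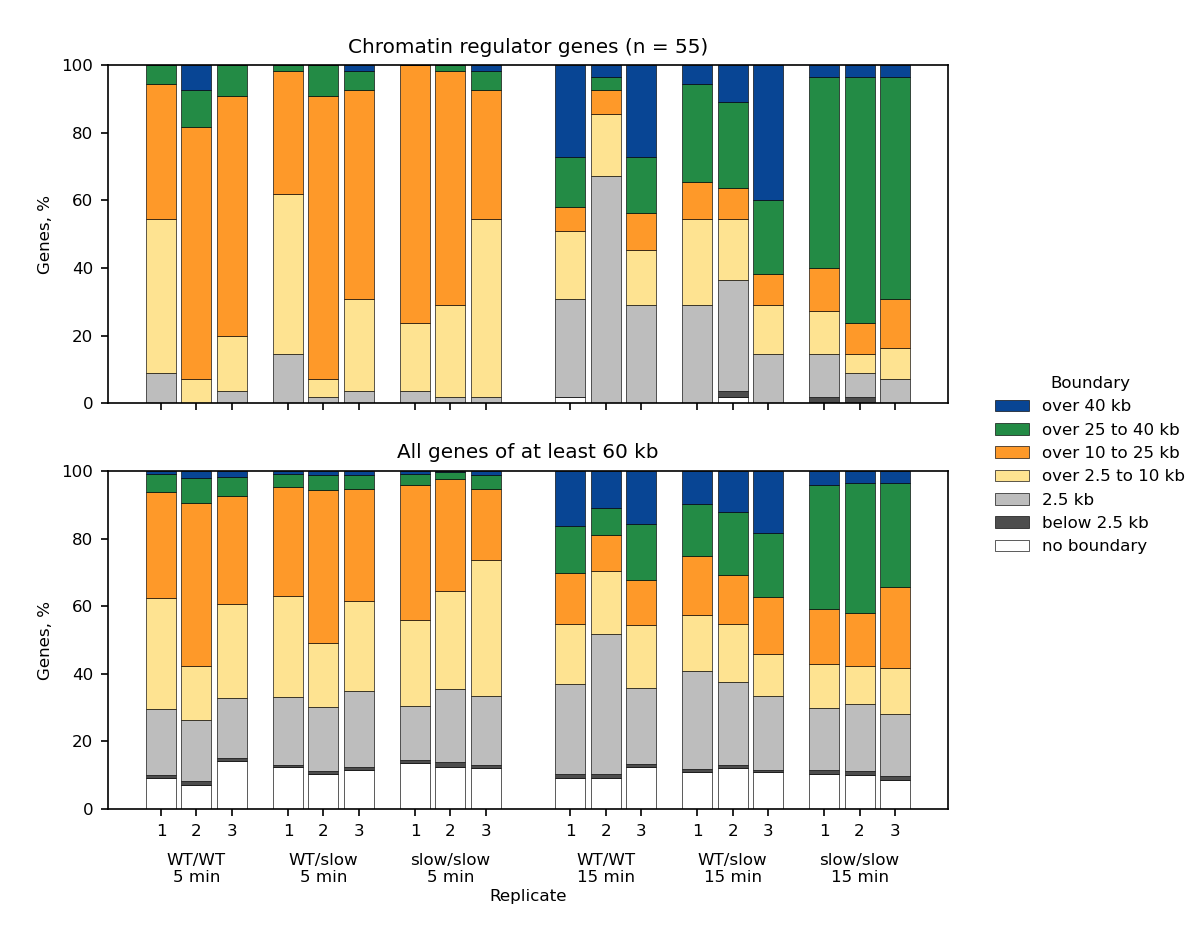
Share of genes (y axis, percent) in each class of boundary for the replicates of each genotype at 5 and 15 min (x axis), for the 55 chromatin regulator genes (top) and for all 4678 genes of at least 60 kb (bottom). At 15 min the class over 25 to 40 kb holds 31 to 40 of the 55 genes in the slow/slow replicates and 2 to 9 in the WT/WT replicates.

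Replicates of the same member were also closest in slow/slow cells at 15 min. Of the 55 members, 45 had all 3 slow/slow replicates above 2.5 kb (81.8%), with a median SD of 3.23 kb between them, while 17 had all 3 in WT/WT cells (7.43 kb) and 21 in WT/slow cells (13.6 kb). Over all genes of at least 60 kb these SDs were 4.65, 8.85 and 8.70 kb, or 5.80 kb in WT/WT cells without replicate 2. Over the members the SD in WT/WT cells without replicate 2 was 8.03 kb, from 34 members. Over the members of at least 60 kb the SDs were 3.23, 13.7 and 13.9 kb, or 11.8 kb in WT/WT cells without replicate 2. All 3 replicates lay over 25 kb for 29 members in slow/slow cells, 7 in WT/slow cells and 3 in WT/WT cells, or 12 in WT/WT cells without replicate 2. The shares of the members, 52.7%, 12.7% and 5.45%, stood beside 22.4%, 10.9% and 7.8% of all genes of at least 60 kb. In WT/WT cells without replicate 2 they were 21.8% of the members and 18.9% of all genes of at least 60 kb. Over all genes of at least 60 kb the share with 3 boundaries above 2.5 kb was 54.6% in slow/slow and 32.7% in WT/WT cells. With replicate 2 left out, all boundaries were above 2.5 kb for 50.7% of these genes in WT/WT cells. The shares without replicate 2 need only 2 boundaries to pass, which is easier to meet than 3. For members with at least 2 boundaries above 2.5 kb at both times, the median distance gained per minute between the group means at 5 and 15 min was 1.93 kb in slow/slow cells (51 members), 1.35 kb in WT/slow cells (44 members) and 1.14 kb in WT/WT cells (33 members), or 1.53 kb without WT/WT replicate 2 (31 members). All genes of at least 60 kb followed the same order, with 1.57, 1.30 and 1.06 kb, or 1.38 kb in WT/WT cells without replicate 2. Over the members of at least 60 kb the medians were 1.98, 1.605 and 1.585 kb, or 1.875 kb in WT/WT cells without replicate 2. The genotypes are not compared over the same genes in these medians. The mean at 15 min was nearer the start than that at 5 min for 6 of the 33 WT/WT members and 5 of the 51 slow/slow members. These figures are not rates of elongation where a boundary near the start stands beside a far one.

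With boundaries at 2.5 kb set apart, 33 members could be compared between slow/slow and WT/WT cells at 15 min. Ctcf and Kat6a were called, both with a boundary farther from the start in slow/slow cells, and none was called nearer. Over all 3883 genes tested, 4.48% were called higher and 3.3% lower. The median difference was -2.22 kb over the members, with 19 lower and 14 higher, -0.15 kb over all genes and 5.65 kb over the 41 other chromatin genes tested, of which 3 were called higher and 2 lower. Among the 15 members with 6 boundaries above 2.5 kb, the slow/slow replicates were all above the WT/WT replicates for 3 (Kmt2d, Kat6a and Ctcf) and all below for 4 (Ehmt1, Smarca2, Ino80 and Kat6b). Over all genes these shares were 9.65% and 16.8%. The sign of the median depended on single libraries. It was -3.63 kb without WT/WT replicate 2 (33 members, 19 lower), 4.7 kb without WT/WT replicate 1 (17 members) and 0.67 kb without slow/slow replicate 3 (30 members), and it was 1.77 kb over the 15 members with 3 of 3 boundaries above 2.5 kb in both groups. It also depended on how boundaries near the start were treated. With 2.5 kb kept in, the members' median was 8.7 kb and 6 of 55 were called higher (Chd8, Stag1, Suz12, Kdm2b, Ctcf and Kmt2d), and with boundaries of 5 kb or less set apart it was -5.03 kb over 28 members, with none called. Over all genes these medians were 0.73 kb (9576 genes tested) and -3.2 kb (2800 genes). The calls over all genes in both settings are given at the end.

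Ctcf encodes the zinc finger protein that, with cohesin, anchors chromatin loops. Its transcript, ENSMUST00000005841, has 12 exons and spans 46.3 kb of chromosome 8, from 105636579 to 105682922 on the forward strand of GRCm38. At 5 min its boundary was 12.8, 20.4 and 8.2 kb in the WT/WT replicates, 8.7, 19.6 and 19.5 kb in WT/slow and 15.3, 12.2 and 10.7 kb in slow/slow cells. The 3 genotypes overlapped at this time, and the mean position was in intron 2 in each of them. At 15 min WT/WT cells gave 3.8, 3.5 and 6.7 kb, with the mean in intron 1, and each replicate was nearer the start than its like-numbered one at 5 min. The slow/slow replicates gave 26.3, 34.2 and 25.7 kb, all beyond every WT/WT replicate, and WT/slow cells gave 26.5, 37.3 and 2.5 kb.

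The difference for Ctcf at 15 min was 24.1 kb (SE 4.27, 95% interval 14.9 to 33.2) between slow/slow and WT/WT cells (limma, adjusted p = 0.0044). It was called in all 12 of 14 alternatives in which it could be tested, with adjusted p from 0.00394 to 0.0387. It was not tested where transcripts of at least 60 kb were required or boundaries of 5 kb or less were set apart, which removed 2 of the 3 WT/WT values. Between WT/slow and WT/WT cells the difference was 27.2 kb (SE 4.74, limma adjusted p = 0.0047), but it rests on 2 of 3 WT/slow replicates. With the boundary of 2.5 kb kept in, the limma adjusted p was 0.237, the only loss among 9 alternatives in which it could be tested, and without WT/slow replicate 1 or 2 the gene could not be tested. The change from 5 to 15 min differed between slow/slow and WT/WT cells by 25.1 kb (SE 6.20), which did not pass the test (limma adjusted p = 0.0617). The sequences at the mean positions are printed to show where in the gene the mean boundaries of the 2 genotypes lay. The WT/WT mean was farther along at 5 min than at 15 min, so that its sequence is not read as the end of the released wave. Each is 60 bases of the transcribed strand of GRCm38, with the 10 bases around the mean boundary in capitals, at chr8:105641216-105641275 in intron 1 for WT/WT and chr8:105665282-105665341 in intron 4 for slow/slow cells. With SDs of 1.77 and 4.74 kb between replicates, they mark a neighbourhood and not a site.
Ctcf, WT/WT, 15 min: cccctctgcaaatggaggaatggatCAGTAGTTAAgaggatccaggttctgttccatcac
Ctcf, slow/slow, 15 min: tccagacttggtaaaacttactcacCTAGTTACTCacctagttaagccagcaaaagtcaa

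The other genes of this group encode subunits and partners of cohesin, the ring that holds chromatin loops. Stag1, a cohesin subunit, was at 2.5 kb in all 3 WT/WT replicates at 15 min and at 37, 34.6 and 31.9 kb in slow/slow cells. Nipbl, the loader of cohesin, had no boundary above 2.5 kb in WT/WT cells at that time and 33.8, 33.9 and 29.9 kb in slow/slow cells. For Smc3, which forms the ring itself, WT/WT cells were at 2.5 kb throughout and slow/slow cells at 4.7, 33.8 and 31 kb. With the 2.5 kb boundaries set apart, none of these 3 could be tested at 15 min. All 4 genes had been above 2.5 kb in every WT/WT and slow/slow library at 5 min, with group means from 13.8 to 20.5 kb in WT/WT and from 12.6 to 12.7 kb in slow/slow cells.

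Kat6a encodes a lysine acetyltransferase (MOZ) of histone H3. At 5 min its boundary was 3.5, 21.7 and 26.6 kb for WT/WT, 10.1, 20.9 and 16.5 kb in WT/slow and 9.0, 11.6 and 7.7 kb in slow/slow cells, and the groups overlapped. At 15 min the WT/WT replicates lay at 3.6, 3.0 and 2.7 kb, just past 2.5 kb, while the slow/slow replicates lay at 38.7, 35.9 and 32.5 kb in intron 2. WT/slow cells gave 3.4 kb, no call and 54 kb, which lie on both sides of the slow/slow values. The difference of 32.6 kb between slow/slow and WT/WT cells had an SE of 9.25 and a limma adjusted p of 0.046. The WT/WT mean was 17.3 kb at 5 min and 3.1 kb at 15 min. The WT/WT values at 15 min are thus not read as the end of the released wave. With boundaries of 5 kb or less set apart, Kat6a could not be tested. The call for Kat6a was lost when any 1 of the 6 libraries was left out (limma adjusted p from 0.0806 to 0.107) and was kept in 4 of the 13 alternatives in which it could be tested.

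The remaining acetyltransferase genes and partners differed among themselves. Ep300 and Crebbp, which encode the coactivators p300 and CBP, were at 34.9, 37.9 and 28.9 kb and at 32.2, 38.6 and 32.3 kb in slow/slow cells at 15 min. In WT/WT cells Ep300 was at 49.7, 2.5 and 7.0 kb and Crebbp at 47.8, 2.5 and 50 kb. For Trrap, the large scaffold of acetyltransferase complexes, WT/WT cells gave 44.9, 2.5 and 11.4 kb and slow/slow cells 20.7, 30.3 and 18.9 kb. Kat6b, a paralogue of Kat6a, was at 25, 17.8 and 21.8 kb in WT/WT and at 7.1, 14.9 and 14.1 kb in slow/slow cells, which did not overlap, and it was at 2.5 kb in all 3 WT/slow replicates at 5 min. Brd1, a bromodomain partner of these enzymes in a transcript of 46.9 kb, was at 2.5 to 3.0 kb in all WT/WT and slow/slow libraries at 15 min.

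Phf20, a reader protein of an acetyltransferase complex, was above 2.5 kb in all 18 libraries at 5 and 15 min. At 5 min it lay at 16.7, 19 and 7.3 kb for WT/WT, 17.9, 11.8 and 10.6 kb in WT/slow and 10.7, 9.0 and 11.7 kb in slow/slow cells. At 15 min the WT/WT replicates were 4.6, 2.8 and 32.8 kb, the WT/slow replicates 40, 30.1 and 31.8 kb and the slow/slow replicates 27.7, 31.1 and 29.8 kb. WT/WT replicate 3 thus lay beyond all of the slow/slow replicates and the others far short of them. The difference of 16.1 kb (SE 6.16) of slow/slow from WT/WT cells was not called (limma adjusted p = 0.133). Among the alternatives it was called only where WT/WT replicate 3, the far value, was left out (25.8 kb, limma adjusted p = 0.00198).

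**Figure D3:**
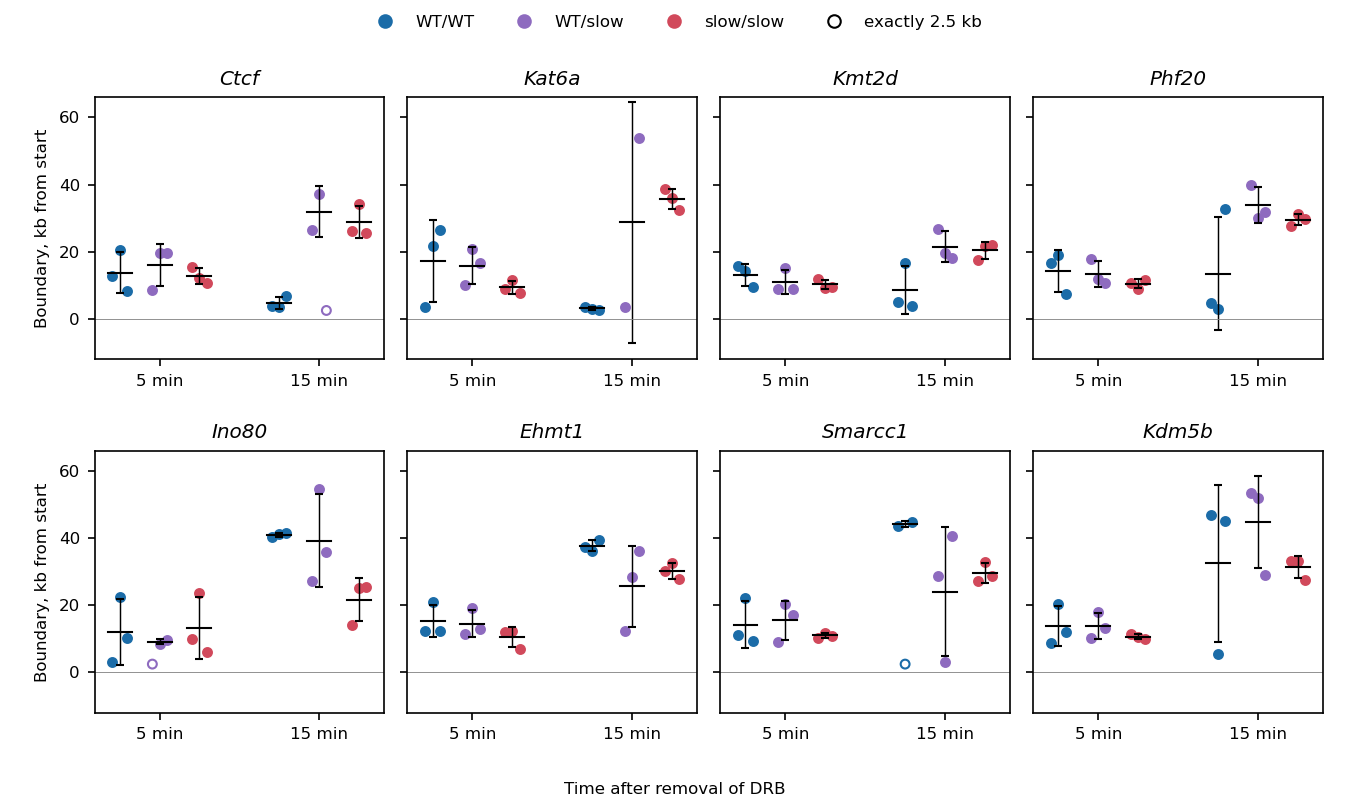
Boundaries of 8 of the genes (y axis, kb from the transcript start) in each replicate of WT/WT (blue), WT/slow (purple) and slow/slow cells (red) at 5 and 15 min after removal of DRB. Filled points are boundaries other than 2.5 kb, open points are exactly 2.5 kb, and bars give mean and SD of the filled points; at 15 min Ctcf and Kat6a are below 7 kb in WT/WT cells and above 25 kb in slow/slow cells, and Ino80 and Ehmt1 are nearer the start in slow/slow cells.

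Among the histone methyltransferases, Kmt2d had the third lowest p at 15 min. It encodes an enzyme that methylates histone H3 at enhancers, and its transcript is short for this set (39.5 kb, 55 exons). At 5 min it lay at 15.8, 14.2 and 9.5 kb for WT/WT, 8.8, 15.2 and 8.9 kb in WT/slow and 11.9, 9.3 and 9.6 kb in slow/slow cells. At 15 min it gave 5.1, 16.7 and 3.7 kb for WT/WT, 26.7, 19.7 and 18.1 kb in WT/slow and 17.5, 21.7 and 22 kb in slow/slow cells. Both mutant groups lay above every WT/WT replicate, and the mean position was in intron 11 in WT/WT cells and in exon 35 in both mutants. The difference between slow/slow and WT/WT cells, 11.9 kb (SE 3.75), was not called (limma adjusted p = 0.0674), nor was that of 13 kb (SE 3.70) between WT/slow and WT/WT cells (limma adjusted p = 0.0564). Without WT/WT replicate 2 the differences were 16 and 17.1 kb with limma adjusted p of 0.0164 and 0.0128. Among the alternatives that kept this library, Kmt2d was called only between slow/slow and WT/WT cells with 2.5 kb kept in.

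Ehmt1, which encodes the histone H3 methyltransferase GLP, had close replicates at 15 min in both WT/WT and slow/slow cells. At 5 min it lay at 12.5, 21 and 12.5 kb for WT/WT, 11.5, 19.1 and 13.1 kb in WT/slow and 12.2, 12.5 and 7.1 kb in slow/slow cells. At 15 min it was at 37.5, 36.3 and 39.5 kb for WT/WT, 12.5, 28.3 and 36.2 kb in WT/slow and 30.1, 32.7 and 27.8 kb in slow/slow cells. The mean boundary was in intron 3 in WT/WT and in intron 1 in slow/slow cells. The difference of -7.57 kb (SE 4.79, 95% interval -17.8 to 2.67) was not called (limma adjusted p = 0.393). That between WT/slow and WT/WT cells, -12.1 kb (SE 4.77), was not called either (limma adjusted p = 0.183). Among the alternatives it was called only without WT/slow replicate 3 (-17.4 kb, limma adjusted p = 0.0376).

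Kmt2a, the MLL1 gene, had the third lowest p at 5 min. Its WT/WT replicates were at 16.9, 19.6 and 13.7 kb, its WT/slow replicates at 4.1, 17.9 and 15.4 kb and its slow/slow replicates at 11, 10.2 and 8.7 kb. All slow/slow values were below all WT/WT values, a difference of -6.77 kb (SE 3.24, limma adjusted p = 0.827). At 15 min it was at 32.5, 2.5 and 34.3 kb for WT/WT, 28.3, 29.1 and 31.6 kb in WT/slow and 28.9, 31.8 and 28.6 kb in slow/slow cells. Leaving aside the value at 2.5 kb, slow/slow cells differed from WT/WT cells by -3.63 kb (SE 3.84) and WT/slow cells by -3.73 kb (SE 3.79), and neither was called.

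The other methyltransferase genes, all but a few of them long, were mostly far along in slow/slow cells. Kmt2c and Kmt2e (relatives of Kmt2a), Setd2 and Ash1l (methyltransferases of histone H3) lay at 28.8 to 37.9 kb in all their slow/slow replicates at 15 min, and between 2.5 and 52.8 kb in WT/WT cells. Setd5, a SET domain protein, was at 2.5 kb in all WT/WT replicates and at 3.0, 38.1 and 31.5 kb in slow/slow cells. Nsd1, another histone H3 methyltransferase, had boundaries close to the start in most libraries at 15 and 30 min in all genotypes (at 15 min 38.2, 4.3 and 3.0 kb in WT/WT and 4.8, 28.3 and 4.3 kb in slow/slow cells). Setdb1 and Dot1l, in transcripts of 33.7 and 40.3 kb, were at exactly 2.5 kb in all 3 slow/slow replicates at 15 min after lying at 8.9 to 11.7 kb at 5 min. In transcripts this short, a wave that has run past the gene's end and one that was not found cannot be told apart from such a value.

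In the Polycomb repressive complex 2, which methylates histone H3 at silent genes, Suz12 had the lowest p of all members at 5 min. The WT/WT replicates were at 2.5, 20.5 and 21.3 kb, the WT/slow replicates at 2.5, 17.3 and 9.5 kb and the slow/slow replicates at 6.8, 9.3 and 4.0 kb. The difference of -14.2 kb (SE 3.65) between slow/slow and WT/WT cells, which leaves out the WT/WT value at 2.5 kb, was not called (limma adjusted p = 0.451). At 15 min Suz12 was at 2.5 kb in all WT/WT replicates, at 19.3, 25.1 and 2.5 kb in WT/slow and at 34.1, 30 and 27.8 kb in slow/slow cells. Its transcript spans 41 kb.

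Ezh2, the catalytic subunit, lay at 5.8, 15.1 and 10.4 kb for WT/WT, 8.5, 17.1 and 6.8 kb in WT/slow and 7.7, 14.4 and 7.5 kb in slow/slow cells at 5 min. At 15 min it was at 43.5, 2.5 and 22.8 kb for WT/WT, 33.4, 54.3 and 46.6 kb in WT/slow and 33.2, 34.3 and 25.3 kb in slow/slow cells. The groups overlapped at both times. Eed, the subunit that binds methylated histone H3 and the shortest member, was at 15, 13.9 and 15.3 kb in slow/slow cells at 5 min and at 2.5 kb in all 3 at 15 min.

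The histone demethylase genes held both near and far values in WT/WT cells. Of 24 WT/WT boundaries at 15 min, 13 were at 2.5 kb, against 2 of 24 in slow/slow cells. Kdm5b, which encodes a demethylase of active promoters, was above 2.5 kb in all 18 libraries. At 5 min it lay at 8.9, 20.5 and 12.2 kb for WT/WT, 10.2, 18 and 13.3 kb in WT/slow and 11.5, 10.6 and 9.9 kb in slow/slow cells. At 15 min it was at 47, 5.4 and 45 kb for WT/WT, 53.4, 52 and 29.1 kb in WT/slow and 33.1, 33.3 and 27.6 kb in slow/slow cells. The slow/slow values fell between the near and the far WT/WT values, and the means differed by -1.13 kb (SE 8.76). This difference includes WT/WT replicate 2, the only near value.

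The same was seen in other demethylase genes. Kdm5a was at 44.9, 2.5 and 2.5 kb in WT/WT and 34.7, 35.2 and 34.6 kb in slow/slow cells at 15 min. Kdm2a was at 2.5, 2.5 and 49.3 kb in WT/WT and 33.6, 37.4 and 34.6 kb in slow/slow cells, and Kdm7a at 2.5, 2.5 and 48.9 kb and 34, 29 and 24.3 kb. For Kdm3b, WT/WT replicate 1 was at 43.1 kb and the others at 2.5 kb, and the slow/slow replicates at 23.5, 27.6 and 26.8 kb. Kdm2b, which brings Polycomb complexes to unmethylated DNA, was the exception in slow/slow cells, with 44.1, 51.4 and 56.1 kb at 15 min, the farthest values of any member in that genotype. Its slow/slow values at 5 min, 9.5, 9.1 and 6.2 kb, were below all WT/WT values (12.8, 41.5 and 10.2 kb). Kdm4a, in a transcript of 43.1 kb, was at 2.5 kb in all WT/WT replicates and at 33.5, 31.1 and 2.5 kb in slow/slow cells. Kdm4c varied in every group, for example from 3.1 to 24.4 kb among the slow/slow replicates at 5 min.

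Among the CHD remodellers, ATPases that move nucleosomes, Chd8 had boundaries far from the start of its longest transcript already at 5 min. Its boundary was 36.1, 30 and 28.7 kb for WT/WT, 5.4, 26.8 and 6.0 kb in WT/slow and 24.4, 23 and 21.5 kb in slow/slow cells. Both mutant groups were below all WT/WT replicates. The differences from WT/WT cells were -8.63 kb (SE 5.09, limma adjusted p = 0.848) in slow/slow cells and -18.9 kb (SE 5.09, limma adjusted p = 0.691) in WT/slow cells. The latter was called only in alternatives that left out WT/slow replicate 2. With that library alone left out it was -25.9 kb (limma adjusted p = 0.0269). At 15 min Chd8, in a transcript of 59.6 kb, was at 2.5 kb in all WT/WT replicates, at 5.9, 2.5 and 2.5 kb in WT/slow cells and at 37.1, 36.8 and 32.5 kb in slow/slow cells.

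Chd9 was above 2.5 kb in all 18 libraries. It lay at 19.8, 21.3 and 6.5 kb for WT/WT, 12.6, 18.8 and 7.8 kb in WT/slow and 9.8, 10.7 and 8.1 kb in slow/slow cells at 5 min, and at 29.6, 32.9 and 18.7 kb, 2.7, 31.5 and 20.7 kb, and 28.2, 35.8 and 22.5 kb at 15 min. WT/WT and slow/slow cells differed by 1.77 kb (SE 6.45) at 15 min. Chd6 and Chd7 were at 30.3 to 37.6 kb and at 28.9 to 32.4 kb in slow/slow cells at 15 min, and each had a WT/WT replicate over 50 kb and another at or below 4.3 kb. Chd1 was at 2.5, 2.5 and 44.9 kb in WT/WT and 37.3, 30.7 and 31.7 kb in slow/slow cells. Chd2 varied in all genotypes (15, 17.9 and 45.1 kb in slow/slow cells), and Chd4, in a transcript of 34.6 kb, was at or below 4.7 kb in every library at 15 min.

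The SWI/SNF genes and the other remodellers held the most negative differences at both times, none of them called. Ino80, the ATPase of the INO80 complex, spans 105 kb on the reverse strand of chromosome 2. At 5 min it lay at 3.1, 22.6 and 10.4 kb for WT/WT, 2.5, 8.6 and 9.7 kb in WT/slow and 9.9, 23.8 and 6.0 kb in slow/slow cells. At 15 min it was at 40.2, 41.2 and 41.5 kb for WT/WT, 27.3, 54.6 and 36 kb in WT/slow and 14.2, 25.3 and 25.5 kb in slow/slow cells. The slow/slow replicates were all below the WT/WT replicates, with the mean position in intron 4 against intron 14. The difference of -19.3 kb (SE 6.77, 95% interval -33.8 to -4.76) was not called (limma adjusted p = 0.102). The replicate block, with a limma adjusted p of 0.0364, was the only alternative that called it. Ino80 is printed as the member with the most negative difference at 15 min, as 60 bases of the transcribed strand of GRCm38 with the 10 around the mean boundary in capitals, at chr2:119436691-119436750 for WT/WT and chr2:119455991-119456050 for slow/slow cells.
Ino80, WT/WT, 15 min: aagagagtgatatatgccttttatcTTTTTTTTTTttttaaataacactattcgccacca
Ino80, slow/slow, 15 min: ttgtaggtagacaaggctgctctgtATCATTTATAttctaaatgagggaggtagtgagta

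Smarcc1, a core SWI/SNF subunit, was at 11.1, 22.3 and 9.4 kb for WT/WT, 9.2, 20.3 and 17.1 kb in WT/slow and 10.4, 11.9 and 10.9 kb in slow/slow cells at 5 min. By 15 min it was at 43.7, 2.5 and 44.9 kb for WT/WT, 28.6, 3.1 and 40.6 kb in WT/slow and 27.1, 32.9 and 28.7 kb in slow/slow cells, below both WT/WT values above 2.5 kb. The difference of -14.7 kb (SE 7.85) was not called (limma adjusted p = 0.307). Smarcad1, a remodeller that acts behind replication forks, lay at 8.0, 46.2 and 38.3 kb for WT/WT, 2.5, 11.3 and 3.0 kb in WT/slow and 15.1, 11.3 and 6.3 kb in slow/slow cells at 5 min. Its difference of -19.9 kb (SE 8.11) was the most negative of the members at that time and was not called (limma adjusted p = 0.796). At 15 min Smarcad1 was at 35.2, 2.5 and 39.2 kb for WT/WT, 2.5, 2.5 and 45.6 kb in WT/slow and 2.5, 31.6 and 32.4 kb in slow/slow cells.

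The other remodeller genes differed among themselves. Arid1b, Ep400 and Bptf, which encode subunits of the BAF, p400 and NURF complexes, were at 21.6 to 38.7 kb in every slow/slow replicate at 15 min, and each was at 2.5 kb in at least 1 WT/WT replicate. Arid2, a PBAF subunit, was far along in all WT/WT replicates (51.8, 54.9 and 45.3 kb) and at 2.5, 35.3 and 28.8 kb in slow/slow cells. Smarca4, the ATPase BRG1, was at 4.1, 2.5 and 2.5 kb in WT/WT and 30.1, 31.9 and 17.8 kb in slow/slow cells. Smarca2, the related ATPase BRM, was the reverse, with 46.8, 9.8 and 11.5 kb in WT/WT and 6.0, 5.4 and 5.7 kb in slow/slow cells. Arid1a, another BAF subunit, was at or below 7.0 kb in all 9 libraries at 15 min and had a boundary below 2.5 kb in slow/slow replicates 1 and 2 (1.4 and 2.0 kb).

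**Figure D4:**
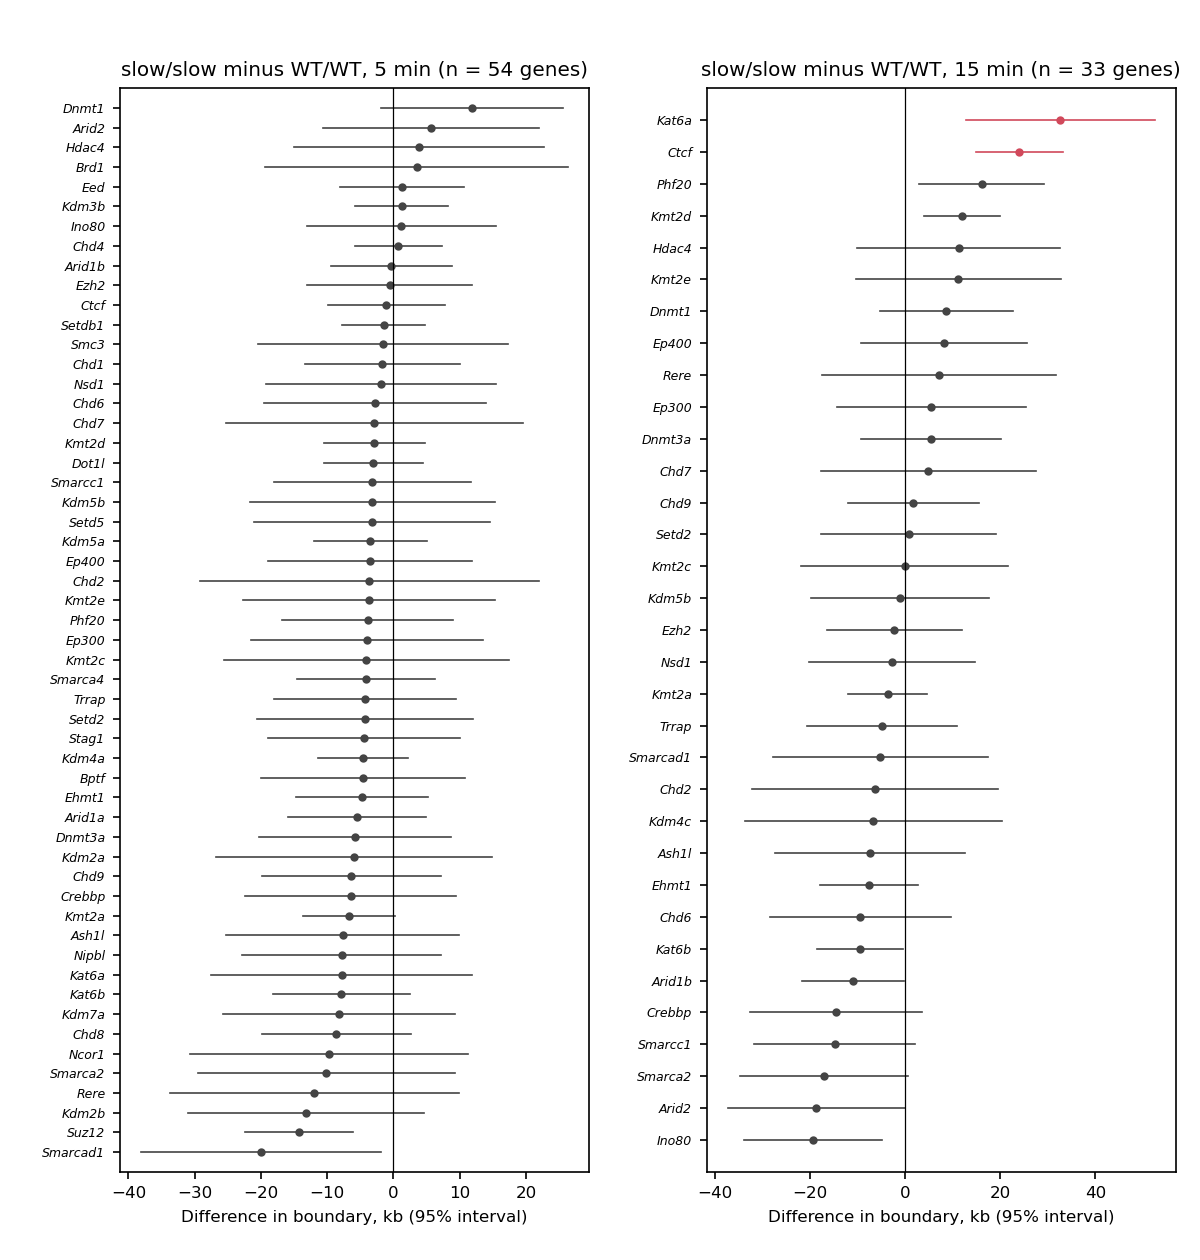
Difference in boundary between slow/slow and WT/WT cells (x axis, kb, with 95% interval from limma) for the 54 members tested at 5 min (left) and the 33 tested at 15 min (right), sorted by size. Points left of 0 are nearer the start in slow/slow cells; Ctcf and Kat6a (red) have an adjusted p under 0.05.

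Among the corepressors, Rere, of the atrophin family, has the longest first intron of the set (124 kb). No boundary in these data exceeds 59.3 kb, so that Rere could not be placed beyond intron 1 in any genotype. At 5 min it lay at 12.2, 40.6 and 16.9 kb for WT/WT, 5.3, 17.1 and 8.5 kb in WT/slow and 14.5, 11.1 and 8.3 kb in slow/slow cells. After 15 min, values were 8.7, 2.5 and 48.3 kb for WT/WT, 2.7, 32.7 and 33.8 kb in WT/slow and 43.3, 33.1 and 30.3 kb in slow/slow cells, a difference of 7.07 kb (SE 11.4) between slow/slow and WT/WT cells. Hdac4, a class II deacetylase, was at 6.1, 2.5 and 35.3 kb in WT/WT and 30.6, 34 and 31.4 kb in slow/slow cells. Ncor1, the nuclear receptor corepressor, was at 2.5 kb in all WT/WT replicates and at 34.2, 47.6 and 25.2 kb in slow/slow cells.

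The DNA methyltransferase genes differed from each other. Dnmt1, which copies methylation after replication, was the only member whose slow/slow replicates all lay beyond the WT/WT replicates at 5 min (20, 20.7 and 19.3 kb against 6.3, 7.8 and 10.3 kb). WT/slow cells gave 8.0, 21.2 and 23.9 kb. The difference of 11.9 kb (SE 6.41) was not called (limma adjusted p = 0.838). At 15 min Dnmt1, in a transcript of 52.7 kb, was at 4.4, 2.9 and 7.3 kb for WT/WT, 3.3, 6.1 and 2.5 kb in WT/slow and 3.1, 3.9 and 33.7 kb in slow/slow cells. Dnmt3a, a de novo methyltransferase, was at 17.6, 14.5 and 12.2 kb for WT/WT, 2.5, 11.6 and 9.7 kb in WT/slow and 10.3, 11.1 and 5.4 kb in slow/slow cells at 5 min. At the later time it was at 8.5, 11.5 and 28.2 kb, 11.7, 45.8 and 33.7 kb and 22.7, 23.3 and 18.7 kb, and the groups overlapped.

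The progress from 5 to 15 min could be compared between slow/slow and WT/WT cells in 32 members, and none was called (limma). Over all 3229 genes, 1.24% were called with more progress in slow/slow cells and 0.124% with less. The median difference was 2.6 kb over the members and 2.58 kb over all genes, and without WT/WT replicate 2 at both times it was -1.04 kb over the members and 0.73 kb over all genes. Leaving out WT/WT replicate 3 at 15 min gave -0.77 kb over 16 members, leaving out replicate 1 at that time gave 8.83 kb over 16, and leaving out WT/WT replicate 1 or 2 at 5 min gave 4.5 and -0.1 kb. Of the members, 4 had an unadjusted p under 0.05, Ctcf, Kat6a, Kmt2d and Phf20, each with more progress in slow/slow cells. This was 12.5% of the members, against 13% of all genes. With 2.5 kb kept in, Suz12, Kdm2b, Stag1 and Chd8 were called. At 15 min Suz12, Stag1 and Chd8 were at exactly 2.5 kb in 3 WT/WT replicates and Kdm2b in 2, so these calls rest on that value. The count over all genes in this setting is given at the end without the number tested, so the members' calls are not read against it.

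Between WT/slow and WT/WT cells the median over the members was negative at 5 min and positive at 15 min, and at both times its sign depended on single libraries. At 5 min the median difference from WT/WT cells was -1.17 kb over 53 members, with 33 lower and 20 higher, and none was called, against 0% of 7009 genes called higher and 0.0143% lower. Of these members, 2 had an unadjusted p under 0.05 (Chd8 and Smarcad1), 3.77% against 4.22% of all genes. Replicate 2 had the farthest boundary in 41 of 55 members in both groups. The median was 2.07 kb without that of WT/WT cells (1.48 kb over all genes), -2.75 kb without that of WT/slow cells, -0.1 kb over 42 members without both, and -0.9 kb with the replicate block. Leaving out both called Chd8 (-26.7 kb, limma adjusted p = 0.0216). Without replicate 1 of WT/slow cells the median was 0.85 kb, and without that of WT/WT cells -2.7 kb. At 15 min the median difference was 1.97 kb over 30 members, and Ctcf was the only 1 called, where 3.13% of 3677 genes were called higher and 1.82% lower. Without WT/WT replicate 2 the median was -1.36 kb and Kmt2d was called as well, and without replicate 2 of both groups it was -3.9 kb over 20 members, with Kmt2d called and Ctcf not tested. Leaving out WT/WT replicate 1 gave 10.9 kb over 16 members, and leaving out WT/slow replicate 1, 2 or 3 gave 4.75, -0.13 and -0.17 kb. Both mutants were compared with the same WT/WT libraries, so that the calls for Ctcf in the 2 comparisons share their WT/WT values.

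After 30 min most chromatin regulators were at exactly 2.5 kb in every genotype, and no test was run. Of 495 boundaries, 401 were at 2.5 kb, 9 below and 85 above. The share at 2.5 kb was 65.5%, 80.0% and 89.1% in the WT/WT replicates, 70.9%, 87.3% and 92.7% in WT/slow and 74.5%, 90.9% and 78.2% in slow/slow cells. The genotypes overlapped. Over all genes of at least 60 kb the share lay between 59.4% and 72.1%. Of the 85 boundaries above 2.5 kb, 69 were at 10 kb or less. All 3 replicates were at 2.5 kb for 32 members in WT/WT, 38 in WT/slow and 33 in slow/slow cells. Nsd1, Arid1a and Dnmt1 were the exceptions, with 2.5 kb in 1, 2 and 2 of the 9 libraries.

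**Figure D5:**
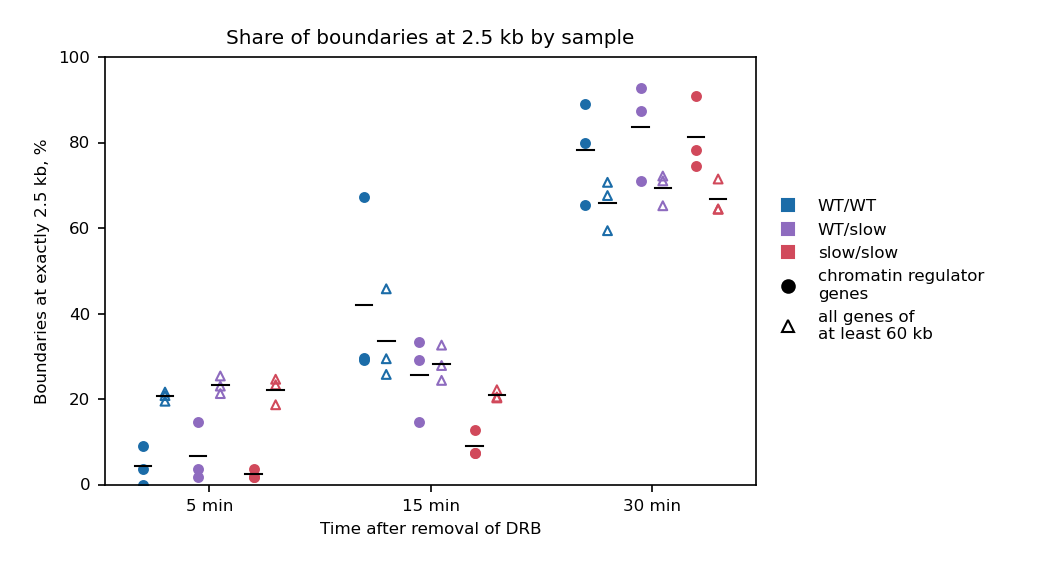
Share of boundaries at exactly 2.5 kb (y axis, percent of boundaries called) in each sample at 5, 15 and 30 min after removal of DRB (x axis), for the 55 chromatin regulator genes (filled circles) and all genes of at least 60 kb (open triangles), with the mean of 3 replicates as a line. The members are below all genes at 5 min and above them at 30 min, and WT/WT replicate 2 at 15 min stands at 67.3%.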

How the data were processed

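4sU-DRB-seq boundaries of 27 samples (3 genotypes, 5, 15 and 30 min, 3 replicates) were analysed. The authors aligned reads to mm10 (GRCm38) with Bowtie2 (version 2.2.9 per the labels), kept uniquely mapped reads outside rRNA, compared each sample with the mean of the 0 min samples and found the end of the wave with published software. The deposited values are distances in bases (neither counts nor a normalized unit) for 122968 transcripts, of which 122200 were found in GENCODE M21 by identifier. The results text gives a DRB block other than the 4 h of labels and methods. The read depth is unknown.

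The longest transcript of at least 20 kb was kept for each gene. The members, their roles and the list of 89 other chromatin genes (80 with such a transcript) were chosen with earlier results of these data known. Boundaries of exactly 2.5 kb were set apart, and genes with at least 2 boundaries above 2.5 kb in each group compared were fitted with limma 3.58.1 (R 4.3.3) over the 18 samples at 5 and 15 min, with a mean per genotype and time. p-values were adjusted by Benjamini-Hochberg over all genes tested, with a threshold of 0.05. Values in every sample are given for members called, the 5 with the lowest p between slow/slow and WT/WT cells at each time, and the member of each role with the most boundaries above 2.5 kb. Other steps used Python 3.11.15, NumPy 2.4.6, pandas 2.3.3, pysam 0.24.0 and Matplotlib 3.10.9.

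The fit was tested on simulated boundaries for slow/slow against WT/WT cells. The simulated noise was normal and independent between libraries. It thus lacked the split of WT/WT boundaries at 15 min into near and far ones, and shifts of a whole library. The fit recovered 41 of 100 changes of 20 kb at 5 min and 41 of 100 at 15 min. Of changes of 40 kb it recovered 82 of 100 at 5 min and 89 of 100 at 15 min, with 4 and 12 false calls. A gene that was not called is thus not shown to be unchanged. Replicate numbers are shared between genotypes. Deviations of equal numbers from their group means correlated over genes (r = 0.105 to 0.28 between WT/slow and WT/WT cells, 0.0102 to 0.109 between slow/slow and WT/WT cells). Both ranges were positive and they overlapped, so the numbers may pair the samples of all genotypes. The main fits do not use this pairing, and those with the replicate block, which do, are alternatives. The alternatives were 2.5 kb kept in, 3 of 3 boundaries required, all transcripts, transcripts of at least 60 kb, log2 values, the replicate block and leaving out 1 library at a time. Setting apart boundaries of 5 kb or less, leaving out both WT/WT replicate 2 libraries and leaving out replicate 2 of both WT/slow and WT/WT cells were chosen after seeing the data.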

Additional observations from a re-analysis of the deposited data

How the results depend on the processing

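No call changed direction under any alternative. Between slow/slow and WT/WT cells at 5 min, where 1 gene was called by limma and no member, 15 genes were called with 2.5 kb kept in, 8 with all transcripts, and 0 with transcripts of at least 60 kb or log2 values. At 15 min the count of 302 genes became 758 with 2.5 kb kept in, 111 with 3 of 3 boundaries required, 918 with all transcripts, 119 with at least 60 kb, 146 on the log2 scale and 190 with boundaries of 5 kb or less set apart. The split of 174 higher and 128 lower became 636 and 122 with 2.5 kb kept in (9576 genes tested) and 124 and 22 on the log2 scale. It became 47 and 72 with at least 60 kb (2545 genes) and 64 and 126 with 5 kb or less set apart (2800 genes). The 2 members called became 6 with 2.5 kb kept in and 0 with at least 60 kb or with 5 kb or less set apart, where Ctcf was not tested. Kat6a was also not tested with 5 kb or less set apart. For progress, 44 genes became 334 with 2.5 kb kept in (4 members, median 12 kb), 8 with 3 of 3, 147 with all transcripts, 2 with at least 60 kb, 1 with 5 kb or less set apart and 9 without both WT/WT replicate 2 libraries. Between WT/slow and WT/WT cells at 5 min, 1 gene became 12 with 2.5 kb kept in, 2 with 3 of 3, 8 with all transcripts, 0 with at least 60 kb, log2 values or the replicate block, 5 with 5 kb or less set apart, 3 without both WT/WT replicate 2 libraries and 7 (1 member, Chd8) without replicate 2 of WT/slow and WT/WT cells. At 15 min, 182 genes became 55, 530, 94, 105, 110 and 82 with 3 of 3, all transcripts, at least 60 kb, log2 values, 5 kb or less set apart and without replicate 2 of both groups, and 1 member (Ctcf) became 0 with 3 of 3, at least 60 kb or 5 kb or less set apart, and 2 without both WT/WT replicate 2 libraries. The cause of these changes was not tested.

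With 1 library left out at a time, the comparison of slow/slow and WT/WT cells called 0 to 2 genes and 0 members at 5 min (median over members -5.45 to -0.67 kb), and 161 to 232 genes and 1 to 2 members at 15 min (-3.63 to 4.70 kb). Progress gave 13 to 44 genes and 0 to 1 members (-0.77 to 8.83 kb). WT/slow against WT/WT cells gave 0 to 3 genes and 0 to 1 members at 5 min (-2.75 to 2.07 kb), and 103 to 163 genes and 0 to 3 members at 15 min (-1.36 to 10.9 kb). With the replicate block, 315 genes and 3 members (Ctcf, Kat6a and Ino80) were called between slow/slow and WT/WT cells at 15 min, 31 genes for progress and 169 genes and 1 member (Ctcf) between WT/slow and WT/WT cells at 15 min, and no member's call was lost with the block. Depth and counting error are unknown, and 3 replicates set the precision.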
